A study of Drosophila melanogaster with 36 samples.

Results

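The cytosolic glutathione S-transferases of Drosophila melanogaster were described across ageing heads, ageing muscles and whole flies of 3 genotypes. Members were all genes whose FlyBase symbol is Gst, a class letter (D, E, O, S, T or Z) and a number. This gave 35 genes, all of them present among the 17494 genes of the head and muscle files and the 17612 genes of the whole-fly files. The delta class (D) has 11 members, epsilon (E) 14, theta (T) 4, omega (O) 3, zeta (Z) 2 and sigma (S) 1.

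These enzymes join the thiol of glutathione to electrophilic compounds such as insecticides, plant toxins and products of lipid peroxidation, and some also act as isomerases or thiol transferases. The delta and epsilon classes are specific to insects and arthropods and have expanded by tandem duplication. Many of their genes are targets of CncC, the fly counterpart of Nrf2, which Keap1 holds back until oxidative or chemical stress releases it.

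Poly-A RNA was read from 36 libraries, and the series asks how transcripts change with age and with the lysine acetyltransferase Gcn5. Heads and muscles of the WT (5905) strain were sampled at ages of 3, 15, 30 and 45 d, and each of these 8 groups holds 3 libraries. The whole flies were all 3 d old and came in 3 genotypes of 4 libraries each. These were WT (5905), the loss-of-function mutant gcn5c450/c450, called the mutant here, and gcn5c450, tub-GAL4/c450, UAS-HA-Gcn5, called the transgene group here. The last genotype carries the c450 allele on both homologues as the mutant does, with a GAL4 driver from the tubulin promoter, which is active in most or all cells, and a tagged Gcn5 under UAS control. The labels class it as overexpression. A strain number is given for WT alone, so Gcn5 genotype and strain background cannot be told apart in whole flies. The labels give no sex and do not say whether the replicates of a group came from separate flies. The p-values therefore measure the spread between these libraries, which may be technical.

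Counts in genes came to 3.18 to 4.36 M per head library, 3.00 to 3.68 M per muscle library and 1.62 to 2.82 M per whole-fly library. Replicate 3 of 3 d muscle stood apart from the other libraries of its group, with Spearman correlations across genes of 0.841 and 0.843, where the next lowest pair of any group had 0.971. Its level of Mhc, the muscle myosin heavy chain gene, was 2086 CPM (counts of a gene per M counts in all genes) against 9574 and 15001 CPM in the other two, so each muscle comparison with 3 d is given with and without it. In replicate 3 of 45 d muscle 36.6% of reads were not uniquely aligned, where the next highest muscle library had 11.6%. Photoreceptor markers summed to 33957 to 63130 CPM in heads of 3 and 45 d and to at most 479 CPM in muscles. Muscle markers summed to 8809 to 57053 CPM in muscles of those ages, but 10 markers of gut, mostly digestive enzymes, also summed to 10111 to 25315 CPM in muscle libraries against 47 to 148 CPM in heads. The muscle libraries therefore held gut transcripts. Gcn5 itself stood at 35.8 ± 7.07 CPM (SD, n = 4) in WT, 36.7 ± 0.561 CPM (n = 4) in the mutant and 2955 ± 165 CPM (n = 4) in the transgene group. The transgene group thus stood far above both others, as its label says, whereas the transcript level in the mutant does not check its allele.

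Levels are given in CPM, with library sizes scaled by TMM factors within heads, within muscles or within whole flies. Changes are log2 fold changes ± SE from edgeR's quasi-likelihood F-test, fitted on all genes, and every adjusted p is its p after Benjamini-Hochberg adjustment over all genes of the comparison. Rose and fell refer to genes whose adjusted p was below 0.05. In bulk samples such as these, fewer cells of a type and less RNA per cell cannot be told apart.

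The family sits in a few tight clusters, and neighbours within a cluster had very different levels. All 11 delta genes lie on chromosome arm 3R between 12364776 and 12385624 (FlyBase r6.36 coordinates), a span of 20849 nt. They run in the order GstD10, GstD9, GstD1, GstD2, GstD3, GstD4, GstD5, GstD6, GstD7, GstD8 and GstD11. Per kb of exon, GstD1 reached 376 CPM in heads of 15 d, while GstD2, next to it, reached 9.12 CPM, and GstD4, GstD6 and GstD7 were at or below 0.453 CPM. GstD7 had no count in the 3 head libraries of 15 d, which allows up to 0.258 CPM for the group (3 counts, counting error only). In muscles of 15 d GstD1 reached 599 CPM per kb and its neighbour GstD9 42.3 CPM per kb.

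GstE10 and GstE1 to GstE9 form the second array, on 2R between 18396638 and 18409835, a span of 13198 nt. Per kb, GstE9 led this array in heads of 15 d with 248 CPM, followed by GstE1 with 122 CPM and GstE6 with 99.2 CPM, while GstE10 was at 0.307 CPM. GstE11 to GstE14 lie elsewhere on 2R, GstE14 between 13239729 and 13241013. GstS1 (17093246 to 17099501) and the pair GstT1 and GstT2 (9605988 to 9608350) are on 2R too. The omega genes share 3L between 8518885 and 8524866, the zeta genes 3R between 9455517 and 9460652, and GstT3 and GstT4 are on X. Strand was not used in counting whole flies and is not given for the other libraries. This bears mainly on GstT2, which shares 25.1% of its exon bases with CG12926 on the opposite strand; the other overlaps cover at most 5.08%. How many reads the paralogs of an array lost or traded through shared sequence is unknown.

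**Figure D1:**
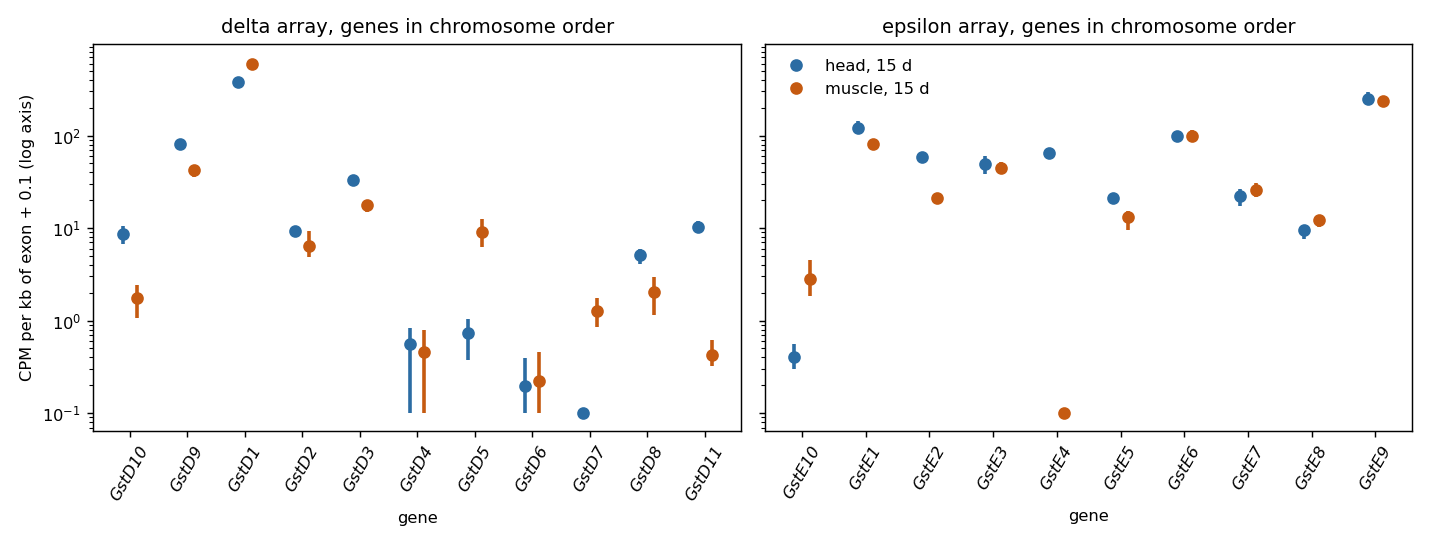
Levels of the delta genes and the clustered epsilon genes in chromosome order, in heads and muscles of 15 d, as CPM per kb of exon plus 0.1 on a log axis (point, mean of 3 libraries; line, lowest to highest). GstD1 stands at 376 CPM per kb in heads and 599 in muscles between neighbours that reach 80.4 at most, and GstE4 has 64.4 CPM per kb in heads and no count in muscles.

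The ranking of the members per kb was set by few genes in each tissue. In heads GstE12 led with 367 ± 27.3 CPM per kb at 3 d (SD, n = 3), and GstD1 followed with 320 ± 26.6, a pair whose libraries overlapped. GstE9 came next with 159 ± 24.3 CPM per kb, clear of both the gene above it and the gene below it. In muscles of 15 d the first 5 were GstD1, GstE12, GstE9, GstT4 and GstS1 with 599, 299, 234, 164 and 125 CPM per kb. No 2 neighbours in that order of 5 overlapped. In WT whole flies GstD1 (309 CPM per kb) and GstS1 (299.96 CPM per kb) overlapped, followed by GstE12 with 187, GstT4 with 141 and GstE9 with 110.3 CPM per kb. From the sixth gene on, neighbours in WT whole flies overlapped almost throughout.

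By class, the family's transcripts were mostly epsilon in heads, led by epsilon and then delta in muscles from 15 d on, and led by the single sigma gene GstS1 in whole flies and in 2 of the 3 muscle libraries of 3 d. Epsilon genes took 52.9 to 58.0% of the family's counts in the head libraries of all ages, a share of counts that is not corrected for length. GstS1 alone took 33.6 to 39.3% of the family's counts in whole flies but 6.30 to 7.92% in heads. In muscles its share was 30.1% on average at 3 d, with a range of 10.96 to 43.8% whose lowest value came from the library that stood apart, and 12.1% at 45 d (10.96 to 12.9%). The delta share in muscles was 16.5 to 23.1% at 3 d, beside that large sigma share, and 32.7 to 33.1% at 45 d. All 35 genes together held 0.177 ± 0.0142% of all counts in heads of 3 d and 0.235 ± 0.0095% at 45 d (n = 3 each). In muscles their share was 0.179 ± 0.0272% at 3 d and 0.319 ± 0.0187% at 45 d. In these shares the libraries of 3 and 45 d did not overlap in either tissue. The highest share at 3 d was 0.193% in heads and 0.204% in muscles, and the lowest at 45 d was 0.230% and 0.306%. The shares are scaled by library size alone, which moved the median of all genes in muscles by 0.89 on the log2 scale. With TMM scaling the family sum in muscles overlapped, at 2157 to 3459 CPM at 3 d and 2527 to 2835 CPM at 45 d. In heads it did not, at 1774 to 2000 CPM and 2162 to 2466 CPM.

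**Figure D2:**
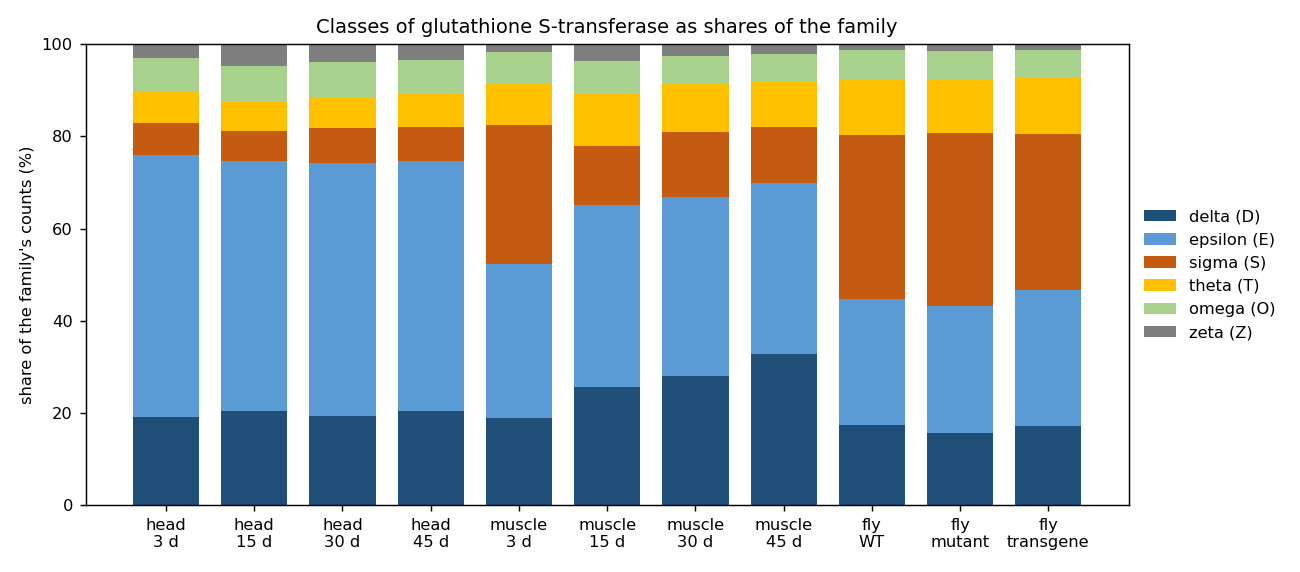
Mean share of the family's counts taken by each class, in percent, for the 11 groups (mean of 3 libraries in heads and muscles, 4 in whole flies). The epsilon segment is the widest in every head group, the delta segment in muscles is 18.8% at 3 d and 32.8% at 45 d, and the sigma segment is 30.1% in muscles of 3 d and 35.6% in WT whole flies.

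In heads, members of the delta and epsilon classes rose with age and 1 epsilon gene of hormone synthesis fell. Between 3 and 45 d, 12 of the 30 members tested rose and 1 fell, where 17.5% of all 9035 genes tested rose and 18.2% fell. The members' median log2 change was 0.34 against 0.01 over all genes. GstD4, GstD5, GstD6, GstD7 and GstE10 had too few counts in heads to be tested. Of all genes called, 48.9% were higher, and 68.9% when libraries were scaled by size alone, a choice that moves the median of all genes by 0.13 on the log2 scale.

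GstD1, the most abundant delta enzyme and known to detoxify DDT and lipid peroxidation products, stood at 249.7, 294 and 265 CPM at 3 d and at 321.5, 319 and 380.0 CPM at 45 d. The groups did not overlap, and the rise was 0.33 ± 0.10 (adjusted p = 0.0116). It passed the threshold under all alternatives tried except the one that left out replicate 3 of 45 d. GstD2 had the largest change among the 30 members tested in heads, from 2.36, 3.05 and 2.11 CPM at 3 d through 7.35, 6.06 and 6.68 CPM at 15 d to 11.4, 11.4 and 9.31 CPM at 45 d. Every library of 15, 30 and 45 d was above every library of 3 d, and the change from 3 to 45 d was 2.08 ± 0.27 (adjusted p = 1.87e-05), on a total of 324 counts over all 12 head libraries. GstD9 moved from 41.4, 48.5 and 44.2 CPM to 67.6, 58.5 and 78.1 CPM, a rise of 0.59 ± 0.12 (adjusted p = 0.000968). GstD3 rose by only 0.35 ± 0.13 (adjusted p = 0.0432), and this call was lost under 10 of 13 alternatives.

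Of the 13 epsilon genes tested in heads between 3 and 45 d, 5 rose and 1 fell. GstE9 stood at 105.5, 144 and 128 CPM at 3 d and at 176, 195 and 267 CPM at 45 d, a rise of 0.75 ± 0.15 (adjusted p = 0.000799). GstE1 moved from 68.3 to 81.6 CPM up to 113 to 142 CPM (0.72 ± 0.13, adjusted p = 0.00032). Their array neighbours GstE6, GstE7 and GstE8 rose by 0.68 ± 0.12, 0.64 ± 0.20 and 1.16 ± 0.25, with adjusted p of 0.000366, 0.0203 and 0.00158. The 5 that rose all belong to the array of 10, and 4 of them, GstE6 to GstE9, are consecutive. GstE2, GstE3, GstE4 and GstE5, which lie between GstE1 and GstE6, did not pass the threshold. GstE12, the epsilon gene with the highest level, had 473 to 549 CPM at 3 d and 513 to 576 CPM at 45 d, and these ranges overlapped.

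GstE14, known as noppera-bo and needed for ecdysteroid synthesis, went the other way. It had 53.6, 57.1 and 48.4 CPM at 3 d, 33.6, 33.4 and 40.8 CPM at 15 d, and 27.8, 29.5 and 32.1 CPM at 45 d. No library of 15, 30 or 45 d reached the lowest of 3 d, and the fall from 3 to 45 d was -0.84 ± 0.12 (adjusted p = 4.55e-05). It kept this call under all 13 alternatives.

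The other classes gave 1 call each, apart from zeta with none. GstS1, the sigma enzyme, had 126 to 131 CPM at 3 d and 169, 171 and 169 CPM at 45 d (0.40 ± 0.08, adjusted p = 0.000887). GstT4 rose by 0.50 ± 0.09 (adjusted p = 0.000588) from 75.8 to 79.1 CPM up to 91.9 to 120 CPM. GstO3, of the omega class of thiol transferases, rose by 0.49 ± 0.09 (adjusted p = 0.000295) from 46.5 to 56.9 CPM up to 71.9 to 74.8 CPM. All 3 had groups that did not overlap. The 3 other theta genes and the 2 other omega genes had log2 changes above 0 but did not pass the threshold.

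Many of these differences were already present at 15 d. Between 3 and 15 d, 9 of 30 members rose and 1 fell, against 5.0% and 7.85% of all genes, with a median of 0.27 for the members and -0.004 for all genes. The risers were GstD2, GstD3, GstD9, GstD10, GstE1, GstE6, GstE9, GstO3 and GstZ2, and the gene that fell was GstE14 (-0.56 ± 0.12, adjusted p = 0.00486). Without replicate 1 of 15 d 4 rose, and without replicate 3 of 15 d 5 rose. GstZ2 belongs to the zeta class, which isomerises maleylacetoacetate in tyrosine breakdown. It had 47.2, 63.2 and 41.5 CPM at 3 d, 94.5, 98.0 and 79.5 CPM at 15 d and 64.4, 48.5 and 92.2 CPM at 45 d. The rise to 15 d was 0.83 ± 0.18 (adjusted p = 0.00715), whereas at 45 d the libraries overlapped with both earlier ages. GstD10 had a like course, with 2.02 to 5.11 CPM at 3 d, 5.77 to 9.22 CPM at 15 d and 4.41 to 7.51 CPM at 45 d.

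From 15 to 45 d only GstT4 and GstS1 rose in heads, by 0.42 ± 0.09 (adjusted p = 0.00907) and 0.30 ± 0.08 (adjusted p = 0.0249). These 2 of 30 members compare with 5.14% of all genes, and the members' median was 0.04. No member fell, against 4.01% of all genes; edgeR gave an unadjusted p below 0.05 to 3 members that were lower, and DESeq2 also called 0. Neither riser was called when replicate 1 or replicate 2 of 45 d was left out, and 1 was called without replicate 2 or 3 of 15 d. Both steps share the 15 d libraries. With size-only scaling, 63.4% of all called genes were higher from 3 to 15 d in place of 38.9%, and 72.9% from 15 to 45 d in place of 56.2%.

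Marker sums moved in heads over the same ages, and their part in these results was not tested. The 8 neuron markers summed to 5382 to 6628 CPM at 3 d and 3712 to 3927 CPM at 45 d. The 7 fat body markers summed to 5287 to 5623 CPM at 3 d, with Fbp2 at 0, and 5987 to 6669 CPM at 45 d. The 10 gut markers, with Jon25Bi at 0 at 45 d, went from 53.0 to 73.8 CPM to 89.8 to 148 CPM, the 10 muscle markers from 3585 to 5184 CPM to 2091 to 2165 CPM, and the 10 photoreceptor markers from 55424 to 63130 CPM to 33957 to 57750 CPM.

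**Figure D3:**
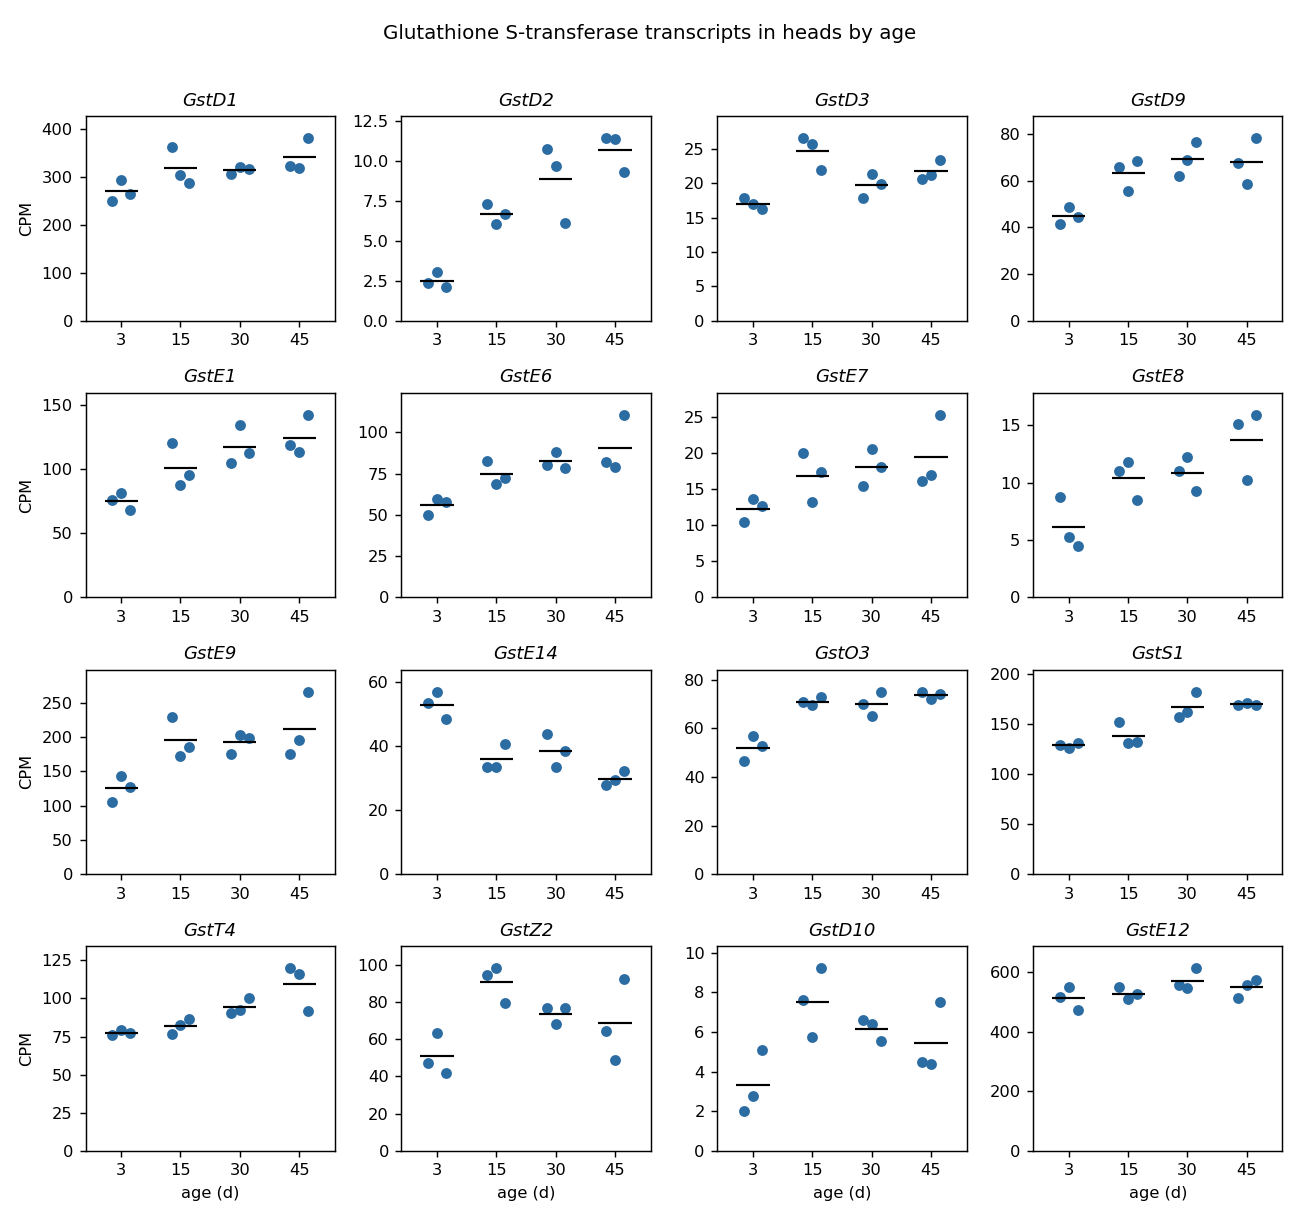
CPM of 16 members in each head library by age (points, libraries; bar, mean of 3), with every y axis starting at 0. GstD2 climbs from 2.11 to 3.05 CPM at 3 d to 9.31 to 11.4 CPM at 45 d, GstE14 drops below its 3 d range, and GstE12 stays between 473 and 614 CPM at all ages.

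In muscles GstS1 and GstE13 fell after 3 d, and 3 delta genes rose by 45 d, with more risers once the odd library of 3 d was left out. Between 3 and 45 d, 3 of 29 members rose (GstD2, GstD5 and GstD8) and 2 fell (GstE13 and GstS1), where 8.21% of 8866 genes rose and 11.1% fell. The median change was 0.11 for the members and 0.01 for all genes. Without replicate 3 of 3 d, the library that stood apart, 13 members rose and 2 fell against 21.6% and 22.5% of all genes, with a median of 0.57. The 13 were GstD1, GstD2, GstD5, GstD8, GstD9, GstE1, GstE6, GstE7, GstE9, GstE12, GstO1, GstT1 and GstT4, so 8 of them lie outside the delta array. Scaling by library size alone gave 24 risers and 1 faller, and the fit of the compared groups only gave 1 and 1. Without replicate 1 of 45 d, 1 member rose, and without replicate 3 of 45 d, the library with the most reads not uniquely aligned, 2 rose. Not tested in muscles were GstD4, GstD6, GstD7, GstD11, GstE4 and GstE14.

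GstS1 is known to be abundant in flight muscle. It stood at 765, 1163 and 379 CPM at 3 d, at 279, 283 and 288 CPM at 15 d, at 332, 368 and 344 CPM at 30 d and at 315, 325 and 311 CPM at 45 d. All libraries of 3 d, the odd one included, were above all later ones. The fall was -1.44 ± 0.29 to 15 d (adjusted p = 0.00871) and -1.28 ± 0.29 to 45 d (adjusted p = 0.00865). It became -1.77 ± 0.12 and -1.61 ± 0.12 without replicate 3 of 3 d. The call was lost when only the compared groups were fitted and when libraries were scaled by size alone. The 10 muscle markers fell with it, from a sum of 31587 to 57053 CPM at 3 d to 8809 to 9294 CPM at 45 d, and their part in this result was not tested.

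GstE13 had 21.4, 31.5 and 41.4 CPM at 3 d, 6.62, 9.35 and 9.28 CPM at 15 d and 5.10, 4.37 and 7.78 CPM at 45 d. Its 3 d group did not overlap with any later age. The fall of -1.89 ± 0.26 to 15 d (adjusted p = 0.000579) and -2.45 ± 0.27 to 45 d (adjusted p = 5.05e-05) passed the threshold under all 13 alternatives. Without replicate 3 of 3 d the falls were -1.64 ± 0.23 and -2.21 ± 0.25. In heads the same gene had 9.99 to 12.8 CPM at 3 d and 6.46 to 9.98 CPM at 45 d, and its change there missed the threshold (-0.51 ± 0.20, adjusted p = 0.0558).

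The 3 genes that rose in muscles with all libraries were delta genes. GstD5 had 7.0, 6.90 and 2.46 CPM at 3 d and 25.7, 14.2 and 17.8 CPM at 45 d, a rise of 1.80 ± 0.45 (adjusted p = 0.0137). GstD2 moved from 0.438, 2.59 and 3.94 CPM to 10.2, 6.82 and 8.89 CPM (1.92 ± 0.48, adjusted p = 0.014). Neither pair of groups overlapped, and neither call held without replicate 1 of 45 d. With the odd library of 3 d left out, the rises were 1.48 ± 0.41 for GstD5 (adjusted p = 0.00809) and 2.49 ± 0.53 for GstD2 (adjusted p = 0.00114). GstD8, at 99 counts over all 12 muscle libraries, moved from 0 to 1.48 CPM up to 3.00 to 7.50 CPM (2.50 ± 0.76, adjusted p = 0.037), and its call was lost under 4 of 13 alternatives, among them the one without replicate 3 of 45 d, which held the 7.50 CPM. Without replicate 3 of 3 d it was 3.25 ± 0.93 (adjusted p = 0.00929).

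Outside the delta array, GstE6 had 47.3, 44.0 and 132 CPM at 3 d, the last in the odd library, and 90.3, 87.1 and 110.3 CPM at 45 d. Its change was 1.07 ± 0.14 (adjusted p = 8.63e-06) without that library. GstE12 and GstT4, at higher levels, changed by 0.49 ± 0.07 (adjusted p = 6e-05) and 0.37 ± 0.09 (adjusted p = 0.00322) in the same fit.

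For GstD1, at the highest level per kb, and for GstD9 the call depended on the library that stood apart. GstD1 stood at 330, 392.4 and 701 CPM at 3 d, the last in the odd library, at 510, 531 and 474 CPM at 15 d, at 543, 612 and 637 CPM at 30 d and at 711, 728 and 810 CPM at 45 d, the last in the library with the most reads not uniquely aligned. With all libraries its change from 3 to 45 d missed the threshold (0.66 ± 0.23, adjusted p = 0.0688), and without replicate 3 of 3 d it was 1.05 ± 0.10 (adjusted p = 2.69e-07). GstD9 had 14.4, 16.8 and 65.0 CPM at 3 d and 66.9, 58.9 and 63.6 CPM at 45 d. Its change was 0.99 ± 0.42 (adjusted p = 0.12) with all libraries and 2.01 ± 0.16 (adjusted p = 4.23e-08) without that library.

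Ratios between members of the same library do not depend on scaling. The ratio of GstD1 to GstE12 counts was 0.898 to 1.22 in the 3 muscle libraries of 3 d and 1.62 to 1.71 at 45 d, with no overlap. The ratio of GstD9 to GstE12 was 0.0450 to 0.0833 at 3 d and 0.134 to 0.153 at 45 d. In heads the ratio of GstD1 to GstE12 was 0.483 to 0.559 at 3 d and 0.570 to 0.660 at 45 d.

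Between 3 and 15 d no member rose in muscles and 2 fell, GstE13 and GstS1, against 2.03% and 6.05% of all genes. The members' median was -0.07. For the rise, edgeR gave 1 member, GstZ2, an unadjusted p below 0.05, and DESeq2 called 0. Without replicate 3 of 3 d, 9 members rose against 11.5% of all genes, and the same 2 fell against 15.2%. Those 9 were GstD1, GstD9, GstE6, GstE7, GstE9, GstE12, GstT1, GstT4 and GstZ2, and the median of the members was then 0.35.

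From 15 to 45 d no member rose or fell among 29 in the fit of all 12 muscle libraries, in which the odd library bears on the estimated spread but not on either group's mean, against 0.925% and 0.767% of all genes. edgeR gave 6 members an unadjusted p below 0.05, all higher at 45 d, and DESeq2 called 0. All 7 delta genes tested had a log2 change above 0, with a median of 0.89. When only the libraries of 15 and 45 d were fitted, so that the spread within 3 d no longer entered, 6 of 28 members rose and 0 fell, against 8.48% and 8.75% of all genes. They were GstD1 (0.58 ± 0.08, adjusted p = 0.000386), GstD9 (0.94 ± 0.11, adjusted p = 0.000181), GstD5, GstD2, GstE1 and GstE6. The libraries of both ages did not overlap for GstD1 (474 to 531 against 711 to 810 CPM) or GstD9 (28.2 to 37.1 against 58.9 to 66.9 CPM).

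Scaling mattered more in muscles than in heads. Scaling by library size alone moved the median of all genes by 0.74 from 3 to 15 d, by 0.89 from 3 to 45 d and by 0.15 from 15 to 45 d. The share of called genes that were higher then became 95.4% in place of 25.1%, 94.3% in place of 42.6% and 80.7% in place of 54.7%. The gut marker sum was 13162, 11073 and 25315 CPM in the 3 libraries of 3 d and 11152 to 12018 CPM at 45 d, with none of the 10 markers at 0. The fat body sum was 2138 to 4711 CPM at 3 d and 5158 to 6056 CPM at 45 d, and the part of both in these results was not tested.

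**Figure D4:**
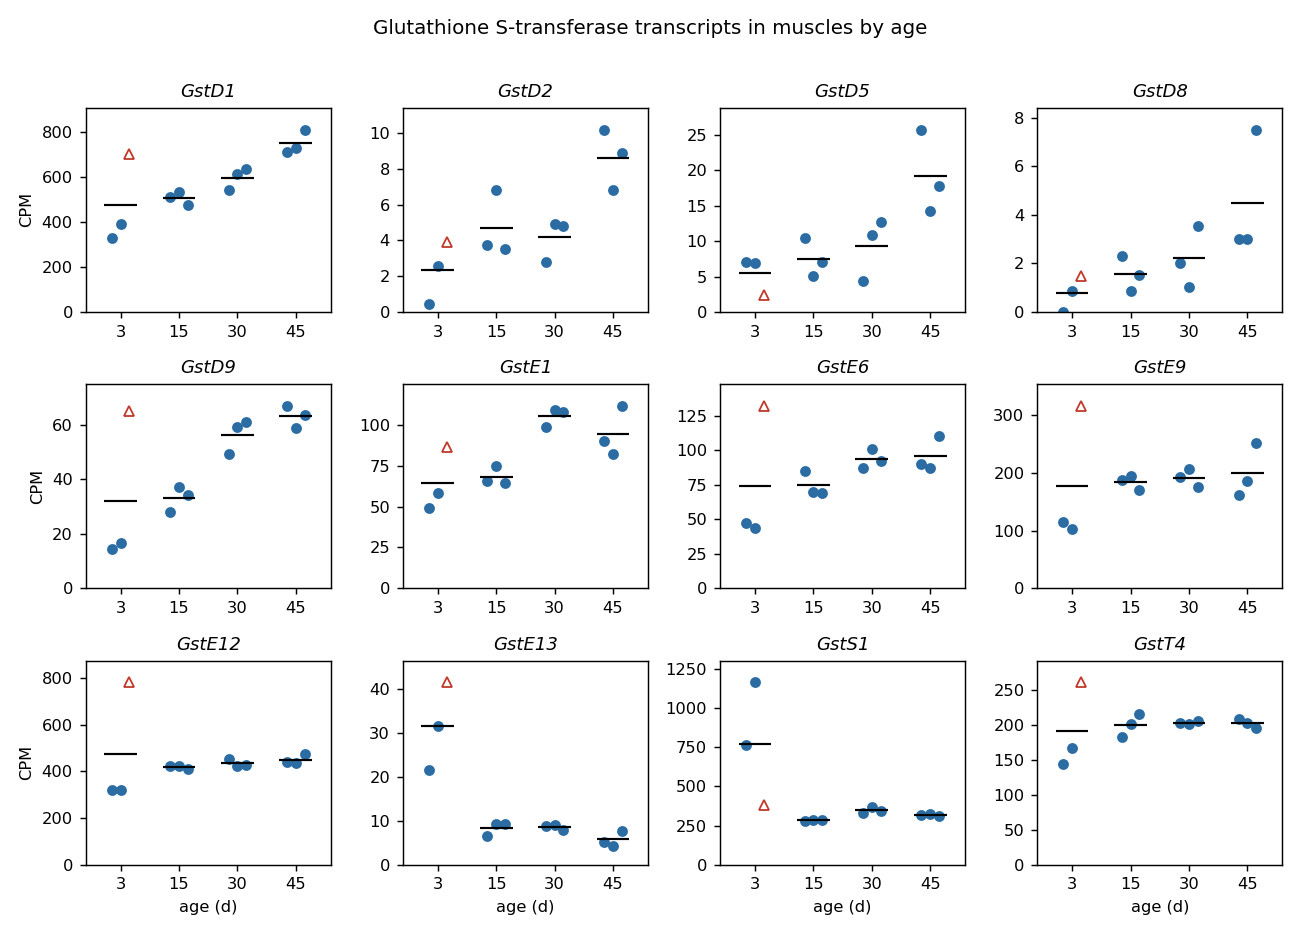
CPM of 12 members in each muscle library by age (points, libraries; open triangle, replicate 3 of 3 d, the library that stood apart; bar, mean of all 3), with every y axis starting at 0. GstS1 and GstE13 drop after 3 d in all libraries, and for GstD1 and GstD9 the triangle, at 701 and 65.0 CPM, lies well above the other libraries of 3 d.

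Muscles and heads were compared directly at 15 d in a joint fit of all 24 libraries, with a common TMM scaling that gives CPM values slightly different from those above. Of 32 members tested, 7 were higher in muscle and 6 lower, against 23.2% and 26.1% of all 9538 genes. The members' median was 0.09 and that of all genes -0.02. Several members were close to specific for one tissue, and these were mostly genes of the arrays at low to moderate levels.

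Higher in muscle were GstT4, GstS1 and GstD1 among the abundant members. GstT4 had 226 ± 19.9 CPM in muscle and 72.4 ± 4.66 CPM in heads (n = 3 each; 1.64 ± 0.16, adjusted p = 1.41e-08). GstS1 had 321 ± 6.82 against 122 ± 10.1 CPM (1.39 ± 0.22, adjusted p = 1.7e-05), and GstD1 572 ± 31.6 against 280.1 ± 33.2 CPM (1.03 ± 0.19, adjusted p = 7.18e-05). All 3 had libraries that did not overlap and kept their calls under all 13 alternatives. GstD5 and GstE10, scarce in heads, were higher in muscle by 4.11 ± 0.59 and 3.41 ± 0.69, with adjusted p of 3.58e-06 and 0.00023. The calls of GstT3 and GstO2 were lost under 4 and 8 of 13 alternatives.

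GstE4 and GstE14 were found in heads and had no count in the 3 muscle libraries of 15 d. GstE4 stood at 42.9 to 54.5 CPM in heads. Its mean of 47.7 CPM was at least 154-fold higher than the 0.309 CPM that 3 counts over the muscle group would give. GstE14 stood at 29.6 to 36.1 CPM in heads, and its mean of 31.8 CPM was at least 103-fold higher than that floor. Over all ages GstE4 had 1 count in the 12 muscle libraries and 2581 in the 12 head libraries, and GstE14 had 6 and 1705. GstD11 had 0.418 ± 0.199 CPM in muscle and 10.1 ± 1.45 CPM in heads (-4.50 ± 0.37, adjusted p = 6.52e-10), GstD10 was lower in muscle by -2.0 ± 0.42 (adjusted p = 0.000314) and GstE2 by -1.10 ± 0.15 (adjusted p = 1.97e-06). The call of GstD10 was lost with 45 d in place of 15 d. GstD3, also lower in muscle, lost its call under 4 of 13 alternatives, that one included. Scaling by size alone moved the median of all genes by -0.26, and 31.7% of called genes were then higher in muscle in place of 47.1%. The gut transcripts in the muscle libraries (11092 to 11666 CPM at 15 d against 47.0 to 69.1 CPM in heads) moved with these differences, and their part was not tested.

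No member passed the threshold for a difference between the tissues in the change from 15 to 45 d. edgeR's interaction test called 0 of 32 members, against 0.0315% of all genes higher and 0.136% lower. It gave 2 members an unadjusted p below 0.05, GstD8 and GstD9, both with the larger change in muscle, and DESeq2 called 0. With size-only scaling 36.8% of the few called genes were higher in place of 18.8%.

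In whole flies the gcn5 mutant had lower levels of 7 members of the delta, epsilon and theta classes than WT and higher levels of none. GstD1, GstD3, GstD9, GstE1, GstE5, GstE9 and GstT4 fell among 26 tested, where 8.80% of 10723 genes fell and 6.37% rose. For the absence of a rise, edgeR gave 1 member, GstT3, an unadjusted p below 0.05 with a higher level, and DESeq2 called 0. The members' median was -0.28 and that of all genes 0.01. GstD2, GstD4, GstD6, GstD7, GstD8, GstD10, GstD11, GstE4 and GstE14 were too scarce in whole flies to be tested.

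GstE5 had 12.8, 11.7, 10.5 and 14.0 CPM in WT, 4.84, 3.76, 2.45 and 3.40 CPM in the mutant and 10.7, 4.94, 10.1 and 9.59 CPM in the transgene group. It fell by 1.77 ± 0.31 on the log2 scale in the mutant (adjusted p = 9.38e-05), the largest change of the 7, and was higher by 1.29 ± 0.32 in the transgene group than in the mutant (adjusted p = 0.00793). WT and mutant libraries were fully apart, and all 4 transgene libraries lay above the mutant's.

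GstT4 had 172, 159, 195 and 161 CPM in WT, 114, 126, 109 and 111.5 CPM in the mutant and 169, 134, 139 and 146 CPM in the transgene group. The mutant's libraries lay below all others. The change was -0.58 ± 0.09 from WT to mutant (adjusted p = 1.72e-05) and 0.35 ± 0.09 from mutant to transgene group (adjusted p = 0.0104), the second lost without replicate 1 of the transgene group. GstE1, at 17.9 to 28.03 CPM in WT, 9.78 to 17.0 CPM in the mutant and 20.4 to 26.4 CPM in the transgene group, gave -0.87 ± 0.20 (adjusted p = 0.00169) and 0.76 ± 0.20 (adjusted p = 0.00928). GstD1 had 237 to 276, 206 to 234 and 248 to 270.3 CPM in the same order, with changes of -0.27 ± 0.07 (adjusted p = 0.0105) and 0.25 ± 0.07 (adjusted p = 0.0284). Its second call was lost under 6 of 15 alternatives, each with 1 library left out. GstE9 fell by 0.43 ± 0.10 (adjusted p = 0.0028), from 85.5 to 88.1 CPM in WT to 56.2 to 73.9 CPM in the mutant.

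GstD3 was low in both genotypes that carry the c450 allele. It had 29.6, 20.6, 22.3 and 19.7 CPM in WT, 10.3, 12.7, 10.8 and 10.6 CPM in the mutant and 13.8, 13.1, 13.5 and 11.99 CPM in the transgene group. WT stood above all 8 other libraries, with changes of -1.05 ± 0.20 for the mutant (adjusted p = 0.000172) and -0.82 ± 0.18 for the transgene group against WT (adjusted p = 0.00161). GstD9 gave -0.54 ± 0.17 (adjusted p = 0.0311) and -0.69 ± 0.17 (adjusted p = 0.0038), though its libraries overlapped between WT (29.0 to 45.3 CPM) and both other groups. The call of GstD9 for the mutant was lost under 6 of 15 alternatives.

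Against the mutant, the transgene group had 8 members higher of 26 and 0 lower, where 5.27% of all genes were higher and 4.11% lower. These were GstD1, GstD5, GstE1, GstE3, GstE5, GstE7, GstE8 and GstT4, with a median over the members tested of 0.24 against -0.01 over all genes. Of members that were lower, edgeR gave none an unadjusted p below 0.05, and DESeq2 called 0. Without replicate 4 of the mutant, replicate 1 or replicate 4 of the transgene group, 5 were higher. GstD5 had 4.01, 2.80, 4.09 and 5.25 CPM in WT, 1.21, 0.940, 1.47 and 6.38 CPM in the mutant and 12.6, 7.76, 16.1 and 11.6 CPM in the transgene group. Every transgene library was above every other, by 2.15 ± 0.40 against the mutant (adjusted p = 0.000354) and 1.55 ± 0.36 against WT (adjusted p = 0.00264). GstE8 had 4.204 to 10.5 CPM in WT, 5.53 to 9.79 CPM in the mutant and 11.1 to 15.2 CPM in the transgene group, with changes of 0.87 ± 0.27 against the mutant (adjusted p = 0.0375) and 0.88 ± 0.27 against WT (adjusted p = 0.0198). Its calls were lost under 6 and 3 of 15 alternatives. GstE3, at 30.8 to 39.7, 24.2 to 33.2 and 38.1 to 46.6 CPM, was higher than in the mutant by 0.56 ± 0.14 (adjusted p = 0.00848).

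Against WT, the transgene group had 3 members higher, GstD5, GstE8 and GstT1, and 2 lower, GstD3 and GstD9, where 7.60% and 8.23% of all genes were called. Their median was -0.13. Without replicate 2 of WT or replicate 2 of the transgene group, 1 was higher. GstT1 overlapped between the groups (16.0 to 34.1 against 27.98 to 36.0 CPM; 0.55 ± 0.18, adjusted p = 0.0313), as GstE7 did between mutant and transgene group (5.64 to 12.7 against 9.88 to 20.8 CPM; 0.82 ± 0.26, adjusted p = 0.0454). These calls of GstT1 and GstE7 were lost under 6 and 8 of 15 alternatives. Each pair of these 3 whole-fly comparisons shares the libraries of 1 group.

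The authors' deposited table for mutant against WT called the same 7 members lower and 0 higher at an adjusted p below 0.05. The authors' deposited table for the transgene group against the mutant called 6 of the 8 higher, without GstE7 and GstE8. In the authors' deposited table for the transgene group against WT the 3 higher and 2 lower members were the same. With size-only scaling, 52.8% of all called genes were higher in mutant against WT in place of 42.0%.

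Markers of other tissues differed between the genotypes, and their part in these results was not tested. The 10 gut markers, none at 0, summed to 8150 to 10595 CPM in WT, 2722 to 5283 CPM in the mutant and 3314 to 5082 CPM in the transgene group. The 8 Malpighian tubule markers, none at 0, summed to 251 to 310.2 CPM, 443 to 528 CPM and 424 to 509 CPM in the same order. The 5 accessory gland markers, with Acp95EF at 0, gave 1852 to 1976 CPM, 3899 to 4816 CPM and 2493 to 2894 CPM, and the 7 hemocyte markers, none at 0, 270.1 to 338 CPM, 135 to 226 CPM and 186 to 254 CPM. Further sums set the transgene group apart from both others. The 7 fat body markers gave 1615 to 1830, 1746 to 2253 and 1319 to 1581 CPM. Fbp1 was at 0 in WT and mutant, and Fbp2 in WT. The 10 photoreceptor markers gave 5694 to 6557, 4961 to 6511 and 7039 to 7350 CPM. The 6 testis markers, with Mst84Da at 0 in the mutant, gave 227 to 316, 313 to 349 and 367 to 420 CPM. The 6 glia markers gave 810 to 906, 720 to 790 and 607 to 693 CPM.

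**Figure D5:**
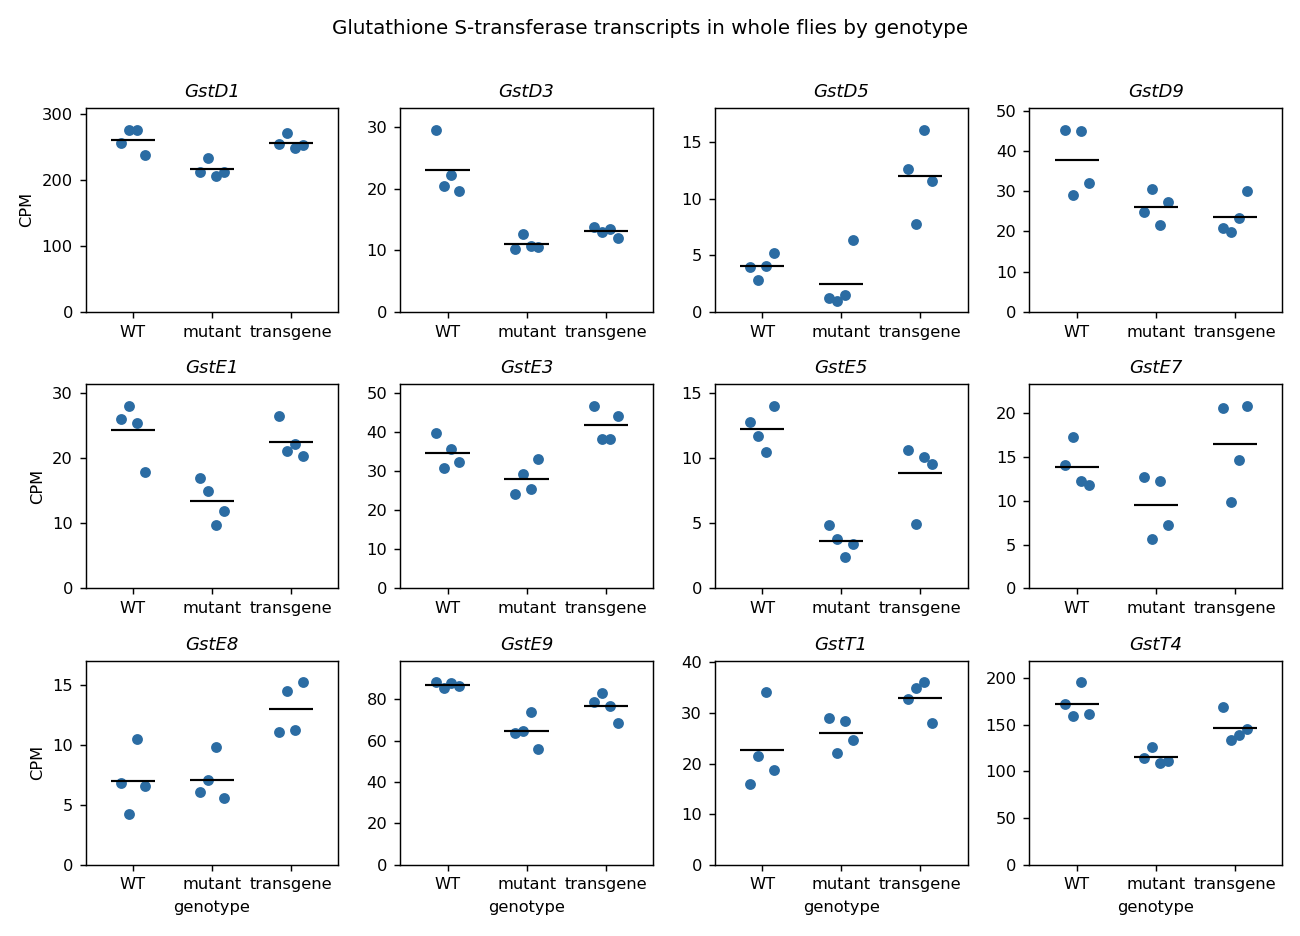
CPM of 12 members in each whole-fly library by genotype (points, libraries; bar, mean of 4), with every y axis starting at 0. The mutant's points for GstE5 (2.45 to 4.84 CPM) and GstT4 (109 to 126 CPM) lie below both other groups, GstD3 is low in mutant and transgene group, and GstD5 is highest in the transgene group (7.76 to 16.1 CPM).

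Other genes of glutathione and redox metabolism also changed with age and with genotype. The list of 13 held genes that make, recycle or spend glutathione, thioredoxin genes and the superoxide dismutase gene Sod1. Of these 13 genes, 10 were tested in heads, the exceptions being Gss1, Gss2 and Trxr2. Between 3 and 45 d, 5 of these rose and 1 fell, beside 17.5% and 18.2% of all genes. Gclc, the catalytic subunit of the enzyme that limits glutathione synthesis, rose from 126 ± 8.61 to 145 ± 1.67 CPM (n = 3 each; 0.21 ± 0.08, adjusted p = 0.0439), while its regulatory subunit Gclm had 109 ± 27.0 and 94.2 ± 20.8 CPM (adjusted p = 0.476). Ggt-1, a gamma-glutamyl transferase, rose by 0.71 ± 0.12 (adjusted p = 0.000283) and Trxr1, a thioredoxin reductase that also keeps glutathione reduced in flies, by 0.53 ± 0.09 (adjusted p = 0.000197). Cth and Gtpx were the other risers, and the glutaredoxin Grx1 fell by 0.24 ± 0.09 (adjusted p = 0.0441). In muscles Ggt-1, Trxr1 and Cth rose and Grx1 fell from 3 to 45 d, 3 and 1 of 10 tested beside 8.21% and 11.1% of all genes. Without replicate 3 of 3 d, 6 rose and 1 fell beside 21.6% and 22.5%. These were the same 4 genes with Gclm, Gtpx and Cbs as further risers, and Ggt-1 went from 0.79 ± 0.14 (adjusted p = 0.0019) to 0.83 ± 0.12 (adjusted p = 3.58e-05). Of 11 tested in whole flies, Ggt-1 and Gtpx were higher in the mutant than in WT and 0 lower, beside 6.37% and 8.80%. The transgene group had Gclm higher and Ggt-1 lower than the mutant, beside 5.27% and 4.11%. Against WT it had Gclm and Ggt-1 higher and 0 lower, beside 7.60% and 8.23%.

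Of 14 genes of the CncC pathway and its reported targets, 12 were tested in heads, and cnc and ref(2)P rose and Cyp6a2 fell between 3 and 45 d, beside 17.5% and 18.2% of all genes. The transcription factor gene cnc had 234 ± 13.6 CPM at 3 d and 351 ± 10.4 CPM at 45 d (0.59 ± 0.07, adjusted p = 1.54e-05). ref(2)P, an adaptor of selective autophagy, rose by 0.51 ± 0.08 (adjusted p = 8.33e-05), and the detoxification gene Cyp6a2 fell by 0.57 ± 0.10 (adjusted p = 0.000333). In muscles 12 were tested, and from 3 to 45 d ref(2)P alone rose and 0 fell, beside 8.21% and 11.1% of all genes. Without replicate 3 of 3 d, cnc, ref(2)P, Cyp6w1 and Cyp4e2 rose and 0 fell, beside 21.6% and 22.5%. From 3 to 15 d no gene was called with all libraries, beside 2.03% and 6.05%. Without that replicate cnc, Cyp6a8, Jheh1, Jheh2 and Cyp4e2 rose and 0 fell, beside 11.5% and 15.2%. In whole flies cnc itself had 340.4 ± 20.7 CPM in WT and 319 ± 17.2 CPM in the mutant (adjusted p = 0.45), while 4 of the 11 pathway genes tested fell in the mutant and ref(2)P rose, beside 8.80% and 6.37% of all genes. The 4 were Jheh3 (-1.65 ± 0.24, adjusted p = 4.1e-06), Cyp6a2, Cyp6a8 and Cyp6w1, which are enzymes of juvenile hormone or xenobiotic metabolism. The transgene group had 6 of these 11 genes lower than WT and 1, Prx1, higher, beside 8.23% and 7.60% of all genes.

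Of 5 genes with transferase-like sequence outside the naming rule, eEF1gamma rose and se fell in heads between 3 and 45 d, beside 17.5% and 18.2% of all genes. The gene se, which lies in the omega cluster and makes a precursor of the red eye pigments, fell from 78.0 ± 6.47 to 37.2 ± 7.99 CPM (-1.08 ± 0.13, adjusted p = 1.15e-05), while GstO3 of the same cluster rose. In whole flies se had 7.17 ± 2.19 CPM in WT, 8.65 ± 2.46 CPM in the mutant and 2.58 ± 0.315 CPM in the transgene group (n = 4 each). The last was lower than the mutant by -1.74 ± 0.35 (adjusted p = 0.000868), and the omega genes GstO1, GstO2 and GstO3 passed no threshold in that comparison.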

How the data were processed

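Poly-A RNA was read as single ends of 100 nt from heads and muscles and as paired ends of 150 nt from whole flies, per the labels. For whole flies the deposited counts came from featureCounts 2.0.1, which counted read pairs without a strand setting on FlyBase r6.36, per the file headers. The head and muscle counts were deposited as whole numbers, followed by 5 tallies in the form htseq-count writes. For all libraries the submitters' processing notes name DESeq2, featureCounts 2.0.1, STAR 2.7.6a and Trim Galore 0.6.6, so the counting tool, annotation and strand setting of heads and muscles are uncertain. The tallies were left out. Reads not uniquely aligned made up 4.99 to 6.92% in heads and 5.39 to 36.6% in muscles (at most 11.6% apart from replicate 3 of 45 d), reads without a feature 3.78 to 4.35% and 1.22 to 2.79%, and ambiguous reads 3.52 to 3.89% and 2.49 to 3.78%. The authors' deposited DESeq2 tables, for whole flies, give a mean signal, a log2 fold change and its standard error, a Wald score, and p-values per gene. Only their calls are quoted.

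A FlyBase symbol was found for 17358 of the 17494 head and muscle identifiers and for 17547 of the 17612 whole-fly ones. Counts were filtered with filterByExpr (count 10, total 15), scaled with TMM factors and tested with edgeR 4.0.16 in R 4.3.3, with 1 mean per group and Benjamini-Hochberg adjustment across all genes tested. Heads (9035 genes kept), muscles (8866) and whole flies (10723) were fitted separately, and 1 joint fit of heads and muscles (9538) gave the comparison of tissues and the interaction. The common biological coefficient of variation (heads 0.0859, whole flies 0.0938, muscles 0.21, joint fit 0.155) and depth per library limit the precision. No test crossed between whole flies and the dissected tissues. The fit was run on simulated counts with known changes, drawn from 1 mean profile per fit. These held no library that stood apart, so they do not bear on replicate 3 of 3 d muscle. Floors for groups without a count are 3 counts over the group and cover counting error only.

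Members past the threshold whose groups did not overlap are named with their values. GstD9, GstE7 and GstT1 in whole flies overlapped, and GstE12 and the members that missed the threshold were named after their values were seen. Alternatives were DESeq2 size factors, library size only, DESeq2 1.42.0, no filter on low counts, robust dispersion, a replicate block, the compared groups only (not for the joint fit), each library of the compared groups left out, 45 d in place of 15 d for the tissues and 3 to 45 d for the interaction. The members, marker lists and pathway lists were chosen with earlier results of these data known. No sequence is printed, since no sequence of these genes was used here.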

Additional observations from a re-analysis of the deposited data

Results flagged for a closer look

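GstD5 in replicate 4 of the gcn5 mutant was flagged because it lay far from the other 3 libraries of its group. It had 6.38 CPM, where the others had 1.21, 0.940 and 1.47 CPM, and the lowest transgene library had 7.76 CPM. GstD5 remained higher in the transgene group than in the mutant without this library. The members called in any whole-fly comparison were examined in each genotype, 36 sets of 4 libraries in all, and chance flags about 1 in 20 such sets. The groups of 3 libraries in heads and muscles are too small for it.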

How the results depend on the processing

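Of 65 calls of single members, 65 held with DESeq2 size factors, 64 with robust dispersion, 63 of 65 without the filter, 62 with the replicate block, 61 with the DESeq2 test, 60 with library size only, 46 of 52 with the compared groups only, and 11 of 13 at 45 d in place of 15 d. Leaving out 1 library kept 353 of 430. No call changed direction.

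The counts of members called moved by more than 1.5 times in these cases. In heads from 3 to 15 d, 2 fell without the filter, with robust dispersion and with the compared groups only. From 15 to 45 d, 5 rose and 1 fell without the filter. In muscles from 3 to 15 d, 15 rose and 1 fell with library size only, and 1 fell with the compared groups only. From 15 to 45 d, 6 rose with the compared groups only. From 3 to 45 d, 24 rose and 1 fell with library size only, and 1 rose and 1 fell with the compared groups only. With library size only, 11 members were lower in muscle than in heads at 15 d, and 1 was higher in the mutant than in WT. The interaction from 3 to 45 d called 1 member higher and 2 lower. The cause was not tested.

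With 1 library of a compared group left out, members higher and lower ranged from 4 to 9 and 1 to 2 in heads from 3 to 15 d, 0 to 3 and 0 to 1 from 15 to 45 d, and 9 to 14 and 1 to 2 from 3 to 45 d. In muscles they ranged from 0 to 9 and 2 to 2, 0 to 0 and 0 to 0, and 1 to 13 and 2 to 2. The range was 5 to 6 and 5 to 6 for muscle against head, and 0 to 0 for the interaction in both directions. In whole flies it was 0 to 1 and 6 to 7 for mutant against WT, 5 to 7 and 0 to 0 for the transgene group against the mutant, and 1 to 3 and 2 to 3 against WT. No library of 3 d was left out for muscles from 15 to 45 d, muscle against head or the interaction. Replicate 3 of 3 d muscle thus stayed in all of those fits.

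Whether equal replicate numbers in the labels pair the samples is not known. Same-numbered libraries deviated together with a correlation over 0.1 in 2 of 18 pairs of head groups, 0 of 18 in muscles and 0 of 12 in whole flies. With the replicate block, heads from 3 to 15 d had 8 members higher and 1 lower, heads from 3 to 45 d 11 and 1, and the transgene group against the mutant 7 and 0; the calls lost were GstE1, GstD3 and GstE7.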
